A study of Rattus norvegicus with 56 samples.

Results

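Cytoplasmic ribosomal protein genes were followed in the hippocampus and parietal cortex of young and aged rats after a sham procedure or magnetic stimulation of the brain. Genes were taken by symbol: every array probe whose transcript accession led through RefSeq to a rat symbol of the Rpl or Rps series, or to Rplp0, Rplp1, Rplp2 or Rpsa, was a candidate, and the brightest probe stood for its gene. RefSeq listed 77 such symbols and 75 of them had a probe by this route, out of 16581 genes named on the array, while Rpl37 and Rps9 had none and were not analysed here. The 75 genes code for 45 proteins of the large subunit and 30 of the small subunit and lie on 19 chromosomes, with 4 of them, Rpl10, Rpl36a, Rpl39 and Rps4x, on the X chromosome. The naming rule used no measured value, other than brightness to choose among probes of one gene. It was set with earlier results of these data known.

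All animals were male Long-Evans rats, 6 to 7 months old in the young group (Y) and 26 to 27 months old in the aged groups. Per the sample labels, aged rats had been sorted by water maze performance into unimpaired (AU) and impaired (AI) animals. A rat received either intermittent theta burst stimulation (iTBS), a pattern of repeated magnetic pulses given through a coil above the skull, or sham stimulation, and both regions were collected 48 h afterwards. Every rat, sham rats included, had been lightly anaesthetised with isoflurane and sedated with dexmedetomidine, so no group was free of either drug. AU_iTBS held 5 animals, AI_iTBS 3, and Y_Sham, Y_iTBS, AU_Sham and AI_Sham 4 each, which makes 24, and since each replicate is a separate rat, the errors below describe spread between animals.

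The cytoplasmic ribosome reads messenger RNA and joins amino acids into protein in every cell, including in the dendrites and axons of neurons. Each of its proteins is normally present once per particle (the stalk proteins excepted), so their genes are transcribed at high and coordinated levels, and many of their messages open with a run of pyrimidines that puts their translation under the control of the growth regulator mTORC1. Neuronal activity and plasticity are known to draw on local protein synthesis, and decline of protein synthesis is a long-studied feature of ageing.

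The start of the message is shown for a few members because the pyrimidine run is the feature most of this gene family is known by and takes no part in how the members were chosen. Each sequence runs from 15 bases before to 15 bases from the RefSeq start of transcription onward, on the gene's own strand, in the rat assembly GRCr8, and the capitals mark a run that begins with C at the start base and holds only C and T for 5 or more bases. The first 6 members have such a run and the last 2, Rpl24 and Rps4x, do not.
Rpl9, chr14:43247575-43247604, plus strand: gacgaaggacgttctCTCTTTgccccatct
Rpl10, chrX:157205835-157205864, plus strand: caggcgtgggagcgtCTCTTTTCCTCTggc
Rpl35, chr3:43165907-43165936, minus strand: cgccccttcctctttCTCTCgaaccgggcg
Rplp1, chr8:71290858-71290887, minus strand: gcaggcgcatgtgatCCTTTCCTCagctgc
Rps15, chr7:10068101-10068130, minus strand: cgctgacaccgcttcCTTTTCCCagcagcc
Rps27, chr2:177964592-177964621, minus strand: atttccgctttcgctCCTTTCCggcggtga
Rpl24, chr11:58128391-58128420, minus strand: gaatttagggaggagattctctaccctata
Rps4x, chrX:71342907-71342936, minus strand: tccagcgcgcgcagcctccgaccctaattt

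Of the 59 members with 1 listed start, 23 (39.0%) opened with such a run, of 5 to 12 bases with a median of 8. The same run stood at 881 of 33469 listed starts in the genome (2.63%), at 0 of 33 translation factor genes and at 2 of 57 mitochondrial ribosomal protein genes (3.51%). Read on the opposite strand, 0 members and 3.40% of all starts carried it. A missing run says only that these letters do not stand at the listed base, and a start annotated a few bases away would hide it.

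All 75 members were well above background in all 24 animals in both regions, and 0 had a saturated spot. Their signals lay near the top of each array's range of brightness, at the 99.5th percentile for the median member and at the 88.8th for the lowest, Rpl27. This is a statement on spots, not on RNA amounts, but it bears on scaling, since a correction that stretches or shrinks the spread of an array acts most on its brightest probes. Levels below are log2 signals scaled to equal mean and equal spread on every array and returned to log2 units, so that 0 is the mean of an array, and the array SD before scaling ran from 3.92 to 4.34. A gene was called where limma gave an adjusted p under 0.05 over all probes tested.

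The region labels held against marker genes listed for each region. The mean level of 5 hippocampal markers was 4.81 to 5.66 on hippocampus arrays and 3.66 to 4.11 on cortex arrays, and that of 5 cortical markers was −0.03 to 1.23 in hippocampus and 1.80 to 2.80 in cortex, without overlap.

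With arrays scaled to equal mean and spread, ribosomal protein messages were mostly lower in hippocampus than in cortex of the same animals, whereas no iTBS, age or cognitive status comparison called a single member. Over all 24 animals, 31 members were called lower in hippocampus than in cortex and 1, Rps4x, was called higher. The median member was −0.17 on the log2 scale (hippocampus minus cortex), against 0.02 for the median probe on the array, and 71 of 75 members lay below 0. Of all probes tested 49.4% were called and 23.1% were called lower in hippocampus, so the share of members called (42.7%) was under that of the array, while the share called lower (41.3%) was above it. In the 12 sham animals alone 8 members were called, all lower in hippocampus (Rpl9, Rpl10, Rpl24, Rpl27a, Rpl32, Rps14, Rps15a and Rps29), where 35.8% of all probes were called and 16.7% were called lower. Their median difference was also −0.17, with 69 of 75 below 0.

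**Figure D1:**
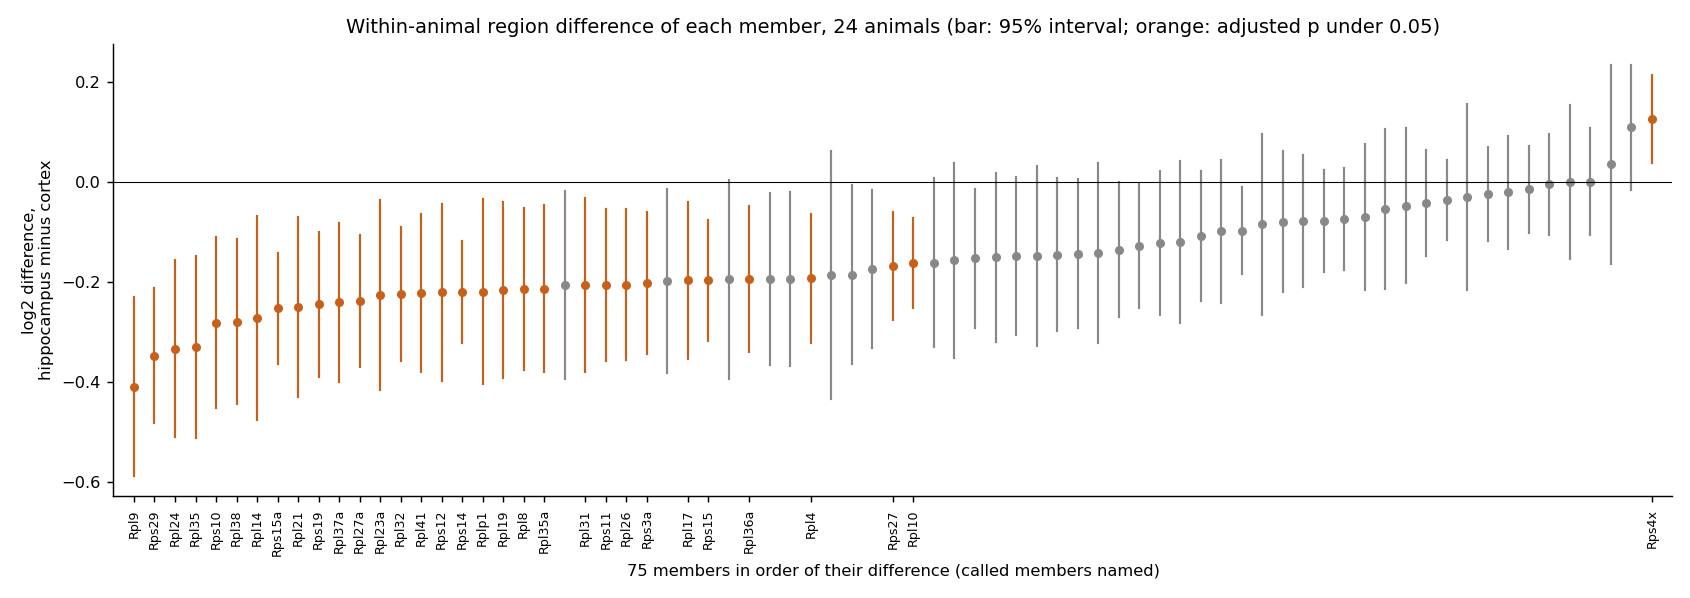
Within-animal difference of each of the 75 ribosomal protein genes, hippocampus minus cortex, on the log2 scale (vertical axis), for 24 animals; points are estimates, bars 95% intervals, and orange marks an adjusted p under 0.05, with those members named. The members run from −0.41 (Rpl9) to 0.13 (Rps4x), 71 of 75 points lie below 0, and Rps4x is the only orange point above it.

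Rpl9, a large subunit protein, had the largest difference. Its level over the 24 animals was 8.69 at the lowest, 9.05 at the median and 9.83 at the highest in hippocampus, and 9.07, 9.55 and 10.06 in cortex. The ranges overlapped, but within animals hippocampus was lower in 20 of 24, and the difference was −0.41 ± 0.086 (SE, limma adjusted p = 0.000466). In the 8 young rats Rpl9 was lower in hippocampus every time: the Y_Sham hippocampi read 8.85, 9.46, 8.88 and 8.69 against 9.93, 9.76, 9.52 and 9.98 in their cortices. Among the AI_Sham rats it was not so uniform, with 9.72, 8.74, 9.12 and 9.26 in hippocampus and 9.29, 9.33, 9.12 and 9.31 in cortex.

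Rps29, a zinc-binding protein of the small subunit head, came next. It ran from 9.60 through a median of 10.24 to 10.72 in hippocampus and from 10.09 through 10.56 to 11.01 in cortex. It was lower in hippocampus in 21 of 24 animals, by −0.35 ± 0.065 (SE, limma adjusted p = 0.000141). Rpl24, the protein altered in the Belly spot and tail mouse, was at −0.33 ± 0.085 (SE, limma adjusted p = 0.00268) and lower in 18 of 24 animals. Rpl35, which sits near the exit of the nascent chain tunnel, was at −0.33 ± 0.087 (SE, limma adjusted p = 0.00383) over 23 animals, since its spot on one Y_Sham hippocampus array had been set aside by the scanner software. Rps10 was at −0.28 ± 0.082 (SE).

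Rps4x, the X-linked small subunit protein, ran the other way. Its level in hippocampus was 6.78 at the lowest, 6.94 at the median and 7.25 at the highest, and in cortex 6.53, 6.84 and 7.18. Hippocampus was the lower region in only 5 of 24 animals, and the difference was 0.13 ± 0.042 (SE, limma adjusted p = 0.0179). The other X-linked members did not share it: Rpl10 was at −0.16 ± 0.043 (SE, called), Rpl36a at −0.19 ± 0.070 (SE, called) and Rpl39 at −0.09 ± 0.087 (SE, not called). The Rps4x probe was dimmer than most, at the 94.9th percentile of the array against the 99.5th for the median member. The dim members Rpl27 and Rpl28 were at 0.00043 and −0.04, neither called, and the part of brightness was not tested.

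**Figure D2:**
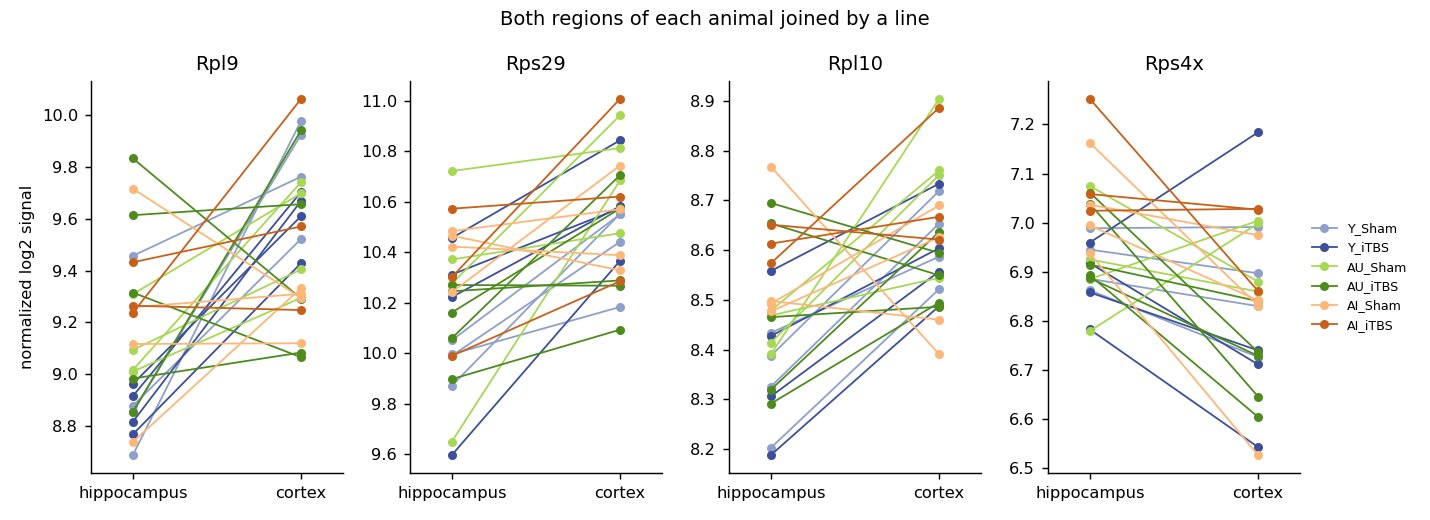
Level of Rpl9, Rps29, Rpl10 and Rps4x (log2, 0 being the mean of an array) in hippocampus and cortex, with a line joining the 2 regions of each of the 24 animals. The lines of Rpl9 and Rps29 mostly rise towards cortex, in 20 and 21 of 24 animals, and those of Rps4x mostly fall.

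Called members came from both subunits and from several functional groups. The large subunit had a median of −0.16 with 21 of 45 called lower, and the small subunit −0.18 with 10 of 30 called lower. In the stalk that recruits elongation factors, Rplp1 was called at −0.22 ± 0.089 (SE) while Rplp2 was at −0.12 and Rplp0 at −0.05. Of the proteins that line the exit tunnel, Rpl4 (over 23 animals, one Y_Sham cortex spot having been set aside) was called at −0.19 and Rpl17 at −0.20, and Rpl39 was not called. The partners of 5S ribosomal RNA, Rpl5 and Rpl11, were at −0.11 and −0.17, neither called. Rps6, the target of S6 kinase, was at −0.08 ± 0.049 (SE), Rpsa, which also serves as a laminin receptor, at −0.20 ± 0.096 (SE), and Rps27a, made as a fusion to ubiquitin, at −0.15 ± 0.081 (SE), none of them called. Among members whose loss of 1 copy causes Diamond-Blackfan anaemia in people, Rps10, Rps19 and Rpl35a were called lower, and Rps7, Rps24 and Rps26 were not called. Rpl38, needed for patterning of the skeleton in mice, was called at −0.28 ± 0.079 (SE). Members with the pyrimidine run had a median of −0.20 (23 genes) and those without it −0.14 (36 genes), a difference given without a test.

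Probes of one gene mostly lay on the same side of 0. For 54 members with more than 1 probe, 42 had all probes on the same side of 0, and of 185 member probes 70 were called lower and 4 higher, with no gene called both ways. All probes of Rpl9 lay between −0.29 and −0.41, and the 3 of Rps29 between −0.28 and −0.35. Rps4x and Rpl24 had 1 probe each, so their values have no second probe behind them. Ribosomal protein genes have many near-identical processed pseudogenes, and hybridization to those was not told apart from the gene itself.

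The size and even the sign of the family's shift depended on the scaling. Over all animals the median member was −0.17 with equal mean and spread, −0.12 after scaling to the 75th percentile, −0.10 after centring on the array median, 0.01 after quantile normalization, −0.26 after normexp background correction in place of the software's and 0.30 with no scaling between arrays. The median of all probes was itself 0.41 with no scaling, so there the members were lower than the array as a whole. After quantile normalization 16 members were called, 11 of them higher in hippocampus and 5 lower, beside 50.1% of all probes. Centring each array on the ribosomal median takes away a shift shared by all members, but not one that varies with a probe's brightness. With each array centred on the ribosomal median, so that only differences among members remain, 17 were called (48.6% of all probes under the same centring). Rpl9 (−0.23), Rps29 (−0.15), Rpl35 (−0.14) and Rpl24 (−0.14) were called lower, and 13 were called higher, led by Rps4x (0.28), Rps2 (0.27), Rpl22 (0.21) and Rps28 (0.19). Rps4x, Rps2 and Rpl22 were dimmer, at the 94.9th, 97.7th and 97.9th percentile of the array, and Rps28 was at the 99.7th. Rpl9, Rps29, Rpl35 and Rpl24 were at the 99.4th, 99.9th, 99.9th and 99.8th. The part of brightness in these differences was not tested.

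Across 4 of the scalings (equal mean and spread, 75th percentile, quantile and ribosomal centring), 4 members were called below 0 every time, Rpl9, Rps29, Rpl24 and Rpl35. Only 1 member, Rps4x, was called above 0 every time. Under ribosomal centring these signs are relative to the median member, not to the array. Median centring and normexp were not among the 4. For Rpl9 the differences were −0.41, −0.36, −0.24 and −0.23 in that order, and for Rps4x 0.13, 0.15, 0.18 and 0.28. With no scaling at all Rpl9 was at 0.06 and Rps4x at 0.57, so the gap between them stayed while the sign of the first did not. Rps29, Rpl24 and Rpl35 were then also above 0, at 0.14, 0.14 and 0.13.

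**Figure D3:**
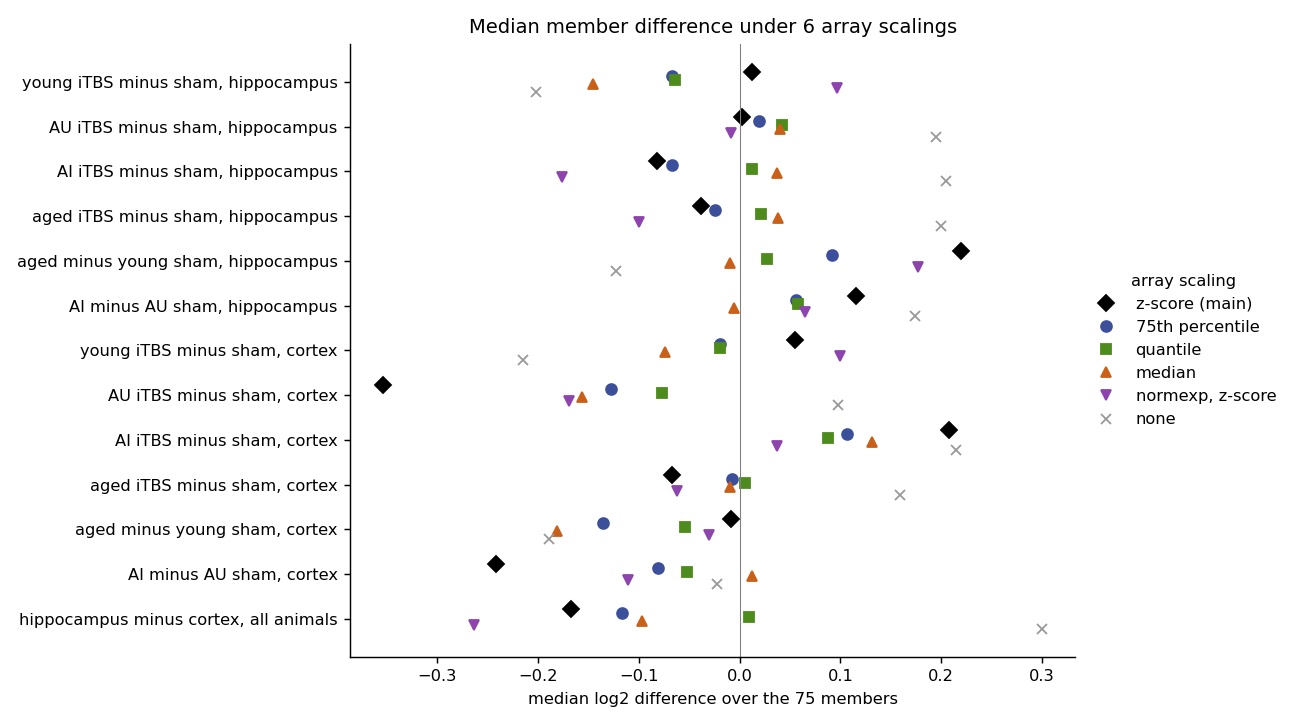
Median difference of the 75 members (log2, horizontal axis) in 13 comparisons, each under 6 array scalings marked by symbol. For hippocampus minus cortex over all animals the symbols spread from −0.26 (normexp background) to 0.30 (no scaling), and for the AU iTBS comparison in cortex from −0.35 to 0.10.

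The region difference was not equal in all groups. The median member (hippocampus minus cortex, mean ± SD over animals) was −0.33 ± 0.15 in Y_Sham (n = 4), −0.40 ± 0.12 in Y_iTBS (n = 4), −0.28 ± 0.22 in AU_Sham (n = 4), 0.06 ± 0.57 in AU_iTBS (n = 5), 0.06 ± 0.40 in AI_Sham (n = 4) and −0.23 ± 0.34 in AI_iTBS (n = 3). All 8 young rats and all 3 AI_iTBS rats lay below 0, whereas the other aged groups held animals on both sides. Single animals ran from 1 member lower in hippocampus (AU_iTBS 2 and AI_Sham 1) to all 75 (Y_iTBS 2 and AI_iTBS 2). After quantile normalization these 4 animals had 8, 13, 67 and 48 members lower. Under other scalings the order of the groups was looser. At the 75th percentile the means were −0.27, −0.33, −0.10, 0.04, 0.02 and −0.15 in the same order, with the 8 young rats still below 0, but after quantile normalization they were −0.05, −0.11, −0.01, 0.14, 0.09 and 0.02, and 1 rat of Y_Sham (0.08) and 1 of Y_iTBS (0.03) lay above 0. Whether these groups differ was not tested. Scan date moved with it. In the 15 animals with both regions read on the first scan date the median was −0.26, with 73 of 75 members lower. In the 8 animals with both regions read later, on separate dates, it was 0.01 with 37 lower. The hippocampus arrays of these 8, and no others, were read on a second scanner. Region, date and scanner therefore cannot be told apart in them. In the 1 animal with both regions on the second date the median was 0.22. With scan date in the model, the difference was taken at the first date in both regions and was no average over dates. Its median was −0.26 and 49 members were called, beside 50.8% of all probes.

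Cell type markers moved with region as well, where 49.4% of all probes were called and 23.1% were called lower in hippocampus. Of 5 oligodendrocyte markers 4 were called higher in hippocampus and 1 lower over all animals, 3 of 5 astrocyte and 3 of 5 microglial markers were called higher, 3 of 4 choroid plexus markers were called higher, and 4 of 6 neuronal and all 4 endothelial markers were called lower. These are bulk samples, in which fewer cells of a type and less RNA per cell cannot be told apart, and the part of cell makeup in the members' differences was not tested.

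Genes around the ribosome were called in both directions. The counts below stand beside 49.4% of all probes called and 23.1% called lower in hippocampus. Among ribosomal proteins outside the naming rule, Fau (−0.24), which carries the small subunit protein eS30, was called lower, and Rps27l (0.27) was called higher. Of 34 translation factors 6 were called higher and 5 lower, the latter including Eef1a2 (−0.37), the elongation factor of mature neurons, and Eef2 (−0.23). Of 20 ribosome biogenesis genes 4 were called higher, led by Fbl (0.46), the methylase of ribosomal RNA, and 2 lower, Polr1b (−0.31) and Ubtf (−0.16), which serve RNA polymerase I. Of 13 genes of mTORC1 signalling, upstream and downstream of it included, 5 were called lower, among them its inhibitors Tsc2 (−0.45) and Tsc1 (−0.36) and its subunit Rptor (−0.31), and Eif4ebp1 (0.23), a translation repressor it acts on, was called higher. The 68 mitochondrial ribosomal proteins had a median of −0.02, with 12 called lower and 5 higher.

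No member was called for iTBS in either region, in young, AU, AI or all aged rats. On the whole array iTBS called 0 probes (0%) in each of these comparisons apart from 2 in the AI cortex (0.00613% of probes), and the aged minus young iTBS effect, with member medians of −0.06 in hippocampus and −0.11 in cortex, called 0 in both regions. In the young hippocampus the median member was at 0.01, with 40 members above 0 and 35 below and none at an unadjusted p under 0.05. In the AU hippocampus it was 0.00 (38 above, 37 below), in the AI hippocampus −0.08 (10 above, 65 below) and in all aged hippocampi −0.04 (20 above, 55 below), again with none at an unadjusted p under 0.05. The median 95% interval of a member reached 0.31 to either side in the young hippocampus, 0.30 in AU and 0.34 in AI. These medians were not alike between scan dates: on date 1 the median was 0.09 in young rats (61 of 75 higher with iTBS), −0.18 in AU (72 lower) and −0.0047 in AI (40 lower), and on date 3 it was −0.28 (75 lower), 0.47 (73 higher) and −0.28 (72 lower), with 1 to 3 animals a group on either date. Date 3 arrays were also read on another scanner, and the part of date or scanner in these values was not tested.

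**Figure D4:**
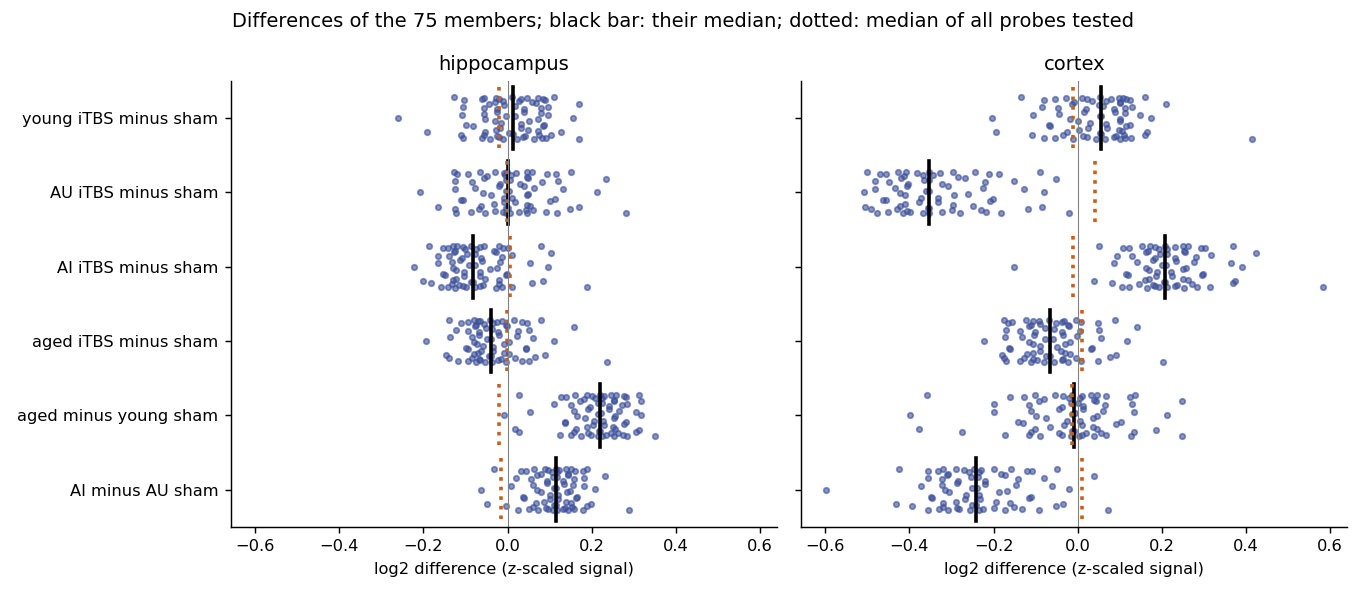
Difference of each of the 75 members (log2, horizontal axis) in the iTBS, age and status comparisons of each region; the black bar is the members' median and the dotted line the median of all probes. The points gather below 0 in the AU iTBS comparison in cortex (median −0.35) and in AI minus AU sham cortex (median −0.24), and above 0 in aged minus young sham hippocampus (median 0.22) and the AI iTBS comparison in cortex (median 0.21).

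The members with the smallest p-values in hippocampus had intervals that reached across 0. Rpl23a, at the mouth of the exit tunnel, read 9.10, 9.26, 9.12 and 8.87 in Y_Sham and 8.92, 8.71, 8.99 and 8.69 in Y_iTBS, with overlap and a difference of −0.26 (95% interval −0.61 to 0.09). In AU rats its difference was 0.23, the opposite side of 0. Rps7, a regulator of the p53 partner Mdm2 as well as a small subunit protein, read 8.73, 8.58, 8.49 and 8.64 in AU_Sham and 9.32, 9.31, 9.01, 8.45 and 8.37 in AU_iTBS. The stimulated rats thus lay either above or below all sham rats, and the difference was 0.28 (95% interval −0.15 to 0.71). This split went with scan date. AU_iTBS 1, 2 and 3, above, were read on dates 3, 3 and 2, and AU_iTBS 4 and 5, below, on date 1. Rpl17 read 9.29, 8.92, 9.26 and 9.23 in AI_Sham and 8.96, 8.95 and 8.96 in AI_iTBS, a difference of −0.22 with an interval of −0.56 to 0.12 and with the stimulated rats inside the sham range. The second smallest p belonged to Rpl6 in young rats (0.15) and to Rpsa in AI rats (−0.16), and over all aged rats the pair was Rps7 (0.24) and Rps19 (−0.19).

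In cortex the AU comparison leaned one way without a call. All 75 members were lower in AU_iTBS than in AU_Sham, with a median of −0.35 where the median probe was at 0.04, and 22 of them (29.3%) were lower at an unadjusted p under 0.05, against 3.51% of all probes. None was called, the lowest limma adjusted p being 0.579. The members are not separate pieces of evidence, since they move together from array to array: over the 24 cortices the median correlation between 2 members was 0.76 (2775 pairs), and in hippocampus 0.81, a description of arrays that share scaling and brightness.

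Rps15, a protein of the small subunit head, had the smallest p. It read 10.32, 10.04, 10.20 and 10.14 in AU_Sham and 9.88, 9.82, 9.75, 9.96 and 9.70 in AU_iTBS. No stimulated rat reached the lowest sham rat, and the difference was −0.35 ± 0.12 (SE, limma adjusted p = 0.579). Rpl29 read 9.55, 9.41, 9.68 and 9.68 in AU_Sham and 9.20, 8.75, 8.81, 9.50 and 9.31 in AU_iTBS, with 1 stimulated rat inside the sham range and a difference of −0.46 ± 0.17 (SE). The stalk proteins Rplp0, Rplp1 and Rplp2 were at −0.48, −0.41 and −0.40, Rpl11 at −0.51, Rpsa at −0.48 and Rps6 at −0.23, all without a call.

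This shift shrank under other scalings. The median member was −0.13 at the 75th percentile, with 65 of 75 lower, −0.08 after quantile normalization, −0.16 after median centring and 0.10 with no scaling, with no member called under any of them. It was −0.24 with scan date in the model, −0.08 among the animals read on the first date (2 AU_iTBS and 3 AU_Sham, 65 lower) and −0.47 on the second (3 AU_iTBS and 1 AU_Sham, 72 lower). On the second date AU_iTBS 2 and 3, with median members at 9.13 and 9.05, were on slide 6, a slide holding several arrays. AU_iTBS 1 (9.53) and AU_Sham 1 (9.61) were on slide 5. Slide 6 held no AU_Sham array, so slide and iTBS cannot be told apart in AU_iTBS 2 and 3. The arrays of the groups also differed in spread, with an SD of 3.94 to 3.99 in AU_Sham and 3.96 to 4.21 in AU_iTBS, and in the share of probes well above background, 61.1% to 63.4% against 62.9% to 69.7%. The part of array spread in the shift was not tested beyond these scalings. Other lists leaned the same way without a call: the 68 mitochondrial ribosomal proteins had a median of −0.16 with 48 lower and 14 at an unadjusted p under 0.05, the 34 translation factors −0.15 with 26 lower and 6 at that p, and the 5 astrocyte markers −0.41 with 4 lower and 1 at that p. Their part in the members' values was not tested.

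In the AI cortex the members leaned the other way. Of 75, 74 were higher in AI_iTBS, with a median of 0.21 (median probe −0.01), and 3 were higher at an unadjusted p under 0.05, against 2.07% of all probes. Rps15a read 9.39, 9.19, 9.04 and 9.34 in AI_Sham and 9.57, 9.94 and 9.38 in AI_iTBS, with 1 stimulated rat inside the sham range and a difference of 0.39 ± 0.15 (SE, limma adjusted p = 0.9999). Rps6 read 8.81, 8.76, 8.61 and 8.92 in AI_Sham and 9.07, 9.20 and 8.94 in AI_iTBS, without overlap, and differed by 0.29 ± 0.13 (SE). The median was 0.11 at the 75th percentile and 0.0093 when a single animal, AI_iTBS 2, was left out of the 3 stimulated rats. Within scan dates it was 0.28 on the first (2 AI_iTBS and 3 AI_Sham, 75 higher) and 0.17 on the second (1 and 1, 58 higher), and with the replicate number as a block 0.26.

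The difference between the AI and AU effects of iTBS was tested as an interaction, chosen after both had been seen. In cortex all 75 members were higher in this contrast, with a median of 0.56, and 28 were higher at an unadjusted p under 0.05, where 3.89% of all probes were. None was called (lowest limma adjusted p 0.399, with 0.0123% of probes called). The median was 0.22 at the 75th percentile and 0.16 after quantile normalization, with 0 and 1 members at an unadjusted p under 0.05. In hippocampus the interaction had a median of −0.09 and called 0% of probes.

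In the young cortex the median member was at 0.06, with 54 above 0 and 21 below, and within scan dates 1 and 2 it was 0.10 and −0.15. The smallest p belonged to Rps25, a protein used in initiation at internal entry sites, at 0.41 (95% interval −0.16 to 0.99), which rests on a single reading: Y_Sham was at 9.53, 9.39, 9.57 and 7.94 and Y_iTBS at 9.41, 9.70, 9.47 and 9.51. Without that sham rat the difference was 0.025. Rps3a was next, at −0.20. Over all aged cortices the median was −0.07, with 15 above and 60 below 0, and Rps7 (0.20) and Rpl29 (−0.17) had the smallest p-values, none called.

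Age did not call a member either. In the hippocampus of sham rats 74 of 75 members were higher in aged than in young animals, with a median of 0.22 (median probe −0.02), and 11 (14.7%) were higher at an unadjusted p under 0.05, against 2.89% of all probes. None was called, and over the whole array 1 probe was (0.00307%). Rpl12, at the base of the stalk, had the smallest p. It read 8.15, 8.05, 8.27 and 8.10 in Y_Sham, 8.25, 8.42, 8.30 and 8.54 in AU_Sham and 8.46, 8.20, 8.49 and 8.40 in AI_Sham, with 2 aged rats inside the young range and a difference of 0.24 ± 0.082 (SE, limma adjusted p = 0.585). Rps29 (0.35), Rpl34 (0.31), Rpl17 (0.31) and Rpl24 (0.31) were the largest among those 11.

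The age shift in hippocampus was also a matter of scaling. It was 0.09 at the 75th percentile, 0.03 after quantile normalization, −0.01 after median centring and −0.12 with no scaling, and within scan dates 1 and 3 it was 0.23 and 0.17. The Y_Sham hippocampus arrays had the widest mean spread of any group, with an SD of 4.16 to 4.25 against 3.93 to 4.34 in AU_Sham and 3.99 to 4.18 in AI_Sham. Among markers, 3 of 5 microglial, 1 of 5 astrocyte and 1 of 3 blood genes were at an unadjusted p under 0.05, with none called, and their part in the members' values was not tested.

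In cortex aged and young sham rats gave a median of −0.01, with 36 members above 0 and 39 below (0.04 and −0.16 within scan dates 1 and 2), and no member among the 0.104% of probes called. Rpl9 (−0.40 ± 0.17, SE) and Rps7 (−0.38 ± 0.17, SE) were lower and Rpl6 (0.25 ± 0.11, SE) higher at an unadjusted p under 0.05. Between impaired and unimpaired sham rats the median member was 0.11 in hippocampus (71 of 75 higher in AI) and −0.24 in cortex (73 of 75 lower in AI), with 0% of probes called in either. The medians were 0.06 and −0.08 at the 75th percentile, 0.06 and −0.05 after quantile normalization, −0.0058 and 0.01 after median centring and 0.17 and −0.02 with no scaling. Leaving out 1 animal gave 0.04 (without AU_Sham 1) to 0.21 (without AI_Sham 2) in hippocampus, with 0.06 without AI_Sham 1 and 0.19 without AU_Sham 4, and −0.32 to −0.17 in cortex. In cortex Rps15 (−0.32), Rps14 (−0.35) and Rps15a (−0.31) were lower at an unadjusted p under 0.05. Apart from replicate 1, the AU_Sham and AI_Sham arrays were on different slides, 1 and 2 in hippocampus and 3 and 4 in cortex. Status and slide therefore cannot be told apart in those animals. This status comparison shares its AU_Sham and AI_Sham animals with the iTBS comparisons above, so their opposite signs in cortex are not independent.

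**Figure D5:**
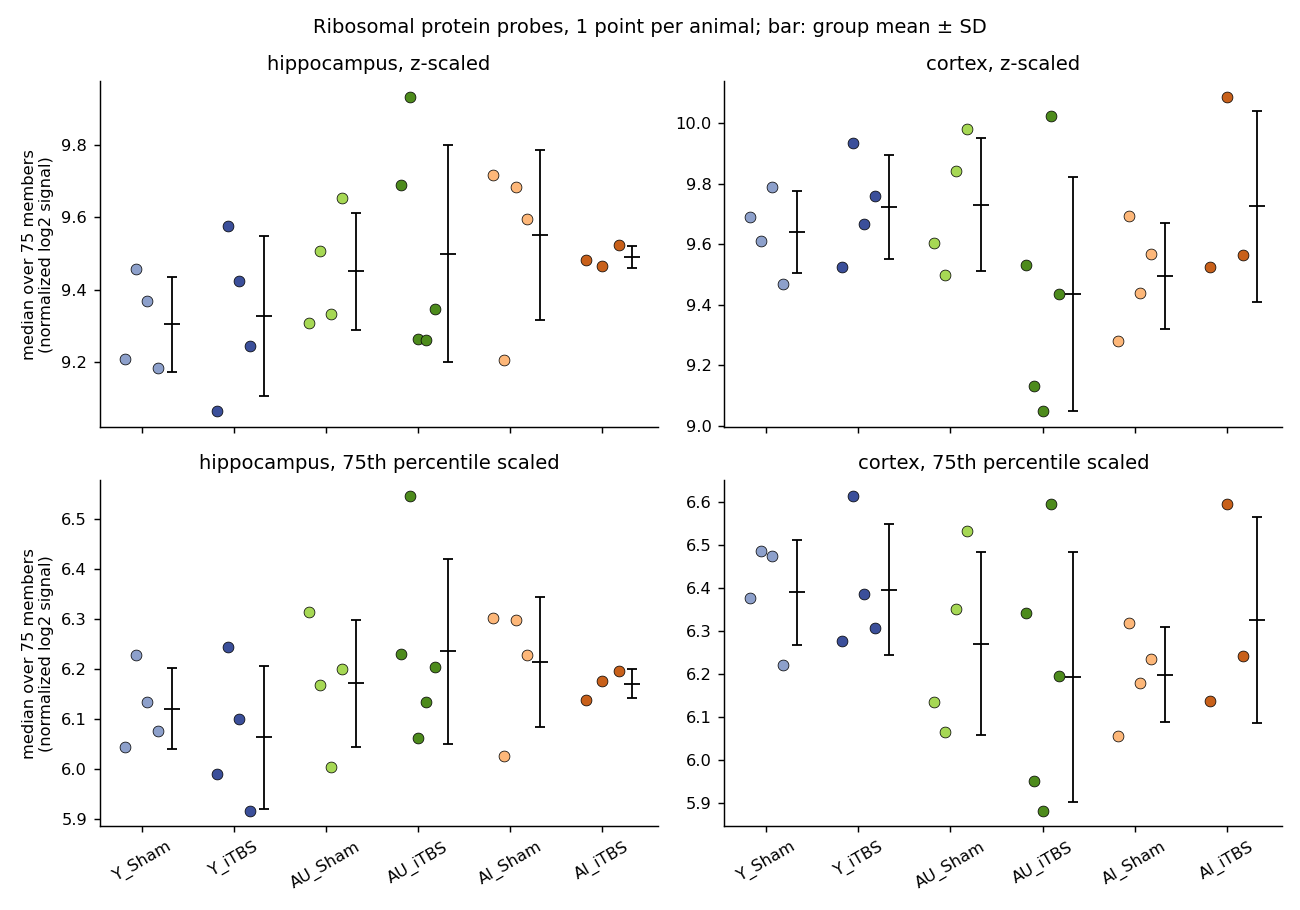
Median level of the 75 members in each animal (log2, vertical axis) by group, for hippocampus and cortex, with arrays scaled to equal mean and spread or to the 75th percentile; bars are the mean ± SD of a group. In cortex the AU_iTBS animals span 9.05 to 10.02, wider than the 9.50 to 9.98 of AU_Sham, and every group overlaps its neighbours.

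Seen per animal, most members moved together. In AU_Sham cortex the median member ran from 9.50 to 9.98 (mean 9.73 ± 0.22 SD, n = 4), and in AU_iTBS from 9.05 to 10.02 (mean 9.43 ± 0.39 SD, n = 5), so that the highest of all AU cortices was a stimulated one. With equal mean and spread, all 75 members were above the mean of the 24 animals in 3 cortices (Y_iTBS 2, AU_Sham 4 and AI_iTBS 2). In AU_iTBS 3 none was. In hippocampus AU_iTBS 2 had all 75 above and Y_Sham 4 none. After quantile normalization these counts were 67, 59, 66 and 10 in cortex and 59 and 19 in hippocampus, in the same order. The SD between animals of a group, taken for the median member, was 0.21 in hippocampus and 0.28 in cortex. It was lowest for Rps4x in hippocampus (0.09) and for Rpl10 in cortex (0.11), and highest for Rpl41 (0.33) and Rps18 (0.52).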

How the data were processed

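Agilent 1-color arrays were hybridized with total RNA from hippocampus and parietal cortex of 24 rats, and the deposited files hold the processed signal intensity of each spot, background subtracted by the authors in Feature Extraction 12.0.3.1 and not scaled between arrays. The authors also deposited a table of z-scores per feature, a score used here only as an alternative. Spots marked as non-uniform or outlying were dropped, copies of 45598 probes averaged, and log2 signals z-scaled per array as in the study's methods and multiplied by the mean array SD (4.08). Repeat arrays were averaged with the first array, apart from 1 left out. Probes well above background in at least 3 of 24 animals were fitted with limma 3.58.1 (R 4.3.3), 6 group means per region or the within-animal region difference, with Benjamini-Hochberg adjustment over all probes and two-sided tests. The script was tested on simulated data: in the AU cortex comparison 4.55% of probes changed by 0.5 log2 units were recovered, and 52.2% by 1. Symbols came through RefSeq for 46.3% of probes, and start sites from RefSeq GRCr8. The members, the other gene lists and the tests were chosen with earlier results of these data known. Named genes were, per iTBS comparison, the 2 members of smallest p, per region comparison the called members of largest difference, and members with set roles; others were chosen after their values were seen, and some genes are not reported here by name. Same-numbered animals of sham and iTBS groups are different rats, and their deviations from the group means correlated at −0.28 to 0.39. In AI rats each same-numbered pair shared a scan date, and in AI cortex all 3 correlations were above 0.1 (0.371, 0.391 and 0.140). The number of arrays limits the precision.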

Additional observations from a re-analysis of the deposited data

Results flagged for a closer look

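In 47 groups of 4 or 5 animals, tested over the named members for 1 animal far from the rest, 3 were marked, and chance alone marks about 1 in 20. In the young sham cortex Rps25 read 7.94 in Y_Sham 4 and 9.39 to 9.57 in the other 3 (gap over range 0.886), while the other 2 Rps25 probes read 9.21 and 9.04 on that array, 8th and 11th from the lowest of 24. In hippocampus Rpl6 read 8.03 in Y_iTBS 1 and 8.51 to 8.59 in the other 3 (0.865). Rpl17 read 8.92 in AI_Sham 2 and 9.23 to 9.29 in the other 3 (0.838).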

How the results depend on the processing

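Outside the region comparisons 0 of 75 members were called in every one of 266 values over the alternatives and in all 168 values that left out 1 animal. Member medians moved beyond the spread between animals chiefly with no scaling between arrays: to −0.20 (young), 0.21 (AI), 0.20 (aged) and 0.40 (aged minus young effect) for iTBS in hippocampus, −0.12 for aged minus young sham hippocampus, −0.21 (young), 0.10 (AU) and 0.39 (aged minus young effect) for iTBS in cortex, and 0.28 (sham) and 0.30 (all animals) between regions. Median centring gave 0.18 for the aged minus young iTBS effect and −0.0097 for aged minus young sham in hippocampus, and quantile normalization −0.077 for AU iTBS in cortex. The AI minus AU iTBS effect in cortex, added after seeing the data, was 0.22 at the 75th percentile and 0.16 after quantile normalization. Between regions the members called were, for sham and all animals, 2 and 12 with median centring and 46 and 69 (all higher) with no scaling. They were 4 and 17 centred on the ribosomal median and 34 and 60 with normexp background. With scan date in the model, at the first date in both regions, they were 26 and 49. After quantile normalization they were 16 over all animals. Over all animals the share of all probes called was 48.6% with ribosomal centring, 50.8% with scan date and 50.1% after quantile normalization. With no scaling the median of all probes was itself higher in hippocampus. Shares under the other alternatives are not given here. Leaving out 1 animal gave 5 to 13 members called in sham (5 without Y_Sham 1 or AI_Sham 2, 13 without AI_Sham 1) and 18 to 46 over all animals (18 without AI_iTBS 2). Single members changed sign with no scaling: Rpl6 (−0.051, young), Rpl17 (0.065) and Rpsa (0.12, AI) and Rps19 (0.053, aged) in hippocampus, Rps15 (0.11, AU) and Rpl29 (0.054, aged) in cortex, between regions in sham animals Rpl9 (0.018), Rpl24 (0.11), Rps29 (0.13), Rpl27a (0.23) and Rpl32 (0.23), and over all animals Rpl9 (0.060), Rps29 (0.14), Rpl24 (0.14), Rpl35 (0.13) and Rps10 (0.20). With normexp background Rps3a in young iTBS cortex was 0.034. The cause was not tested. With the replicate number as a block the AU and AI iTBS medians in cortex were −0.37 and 0.26 and no call changed, and without the block by animal the regions called 10 and 32. No other alternative moved a median beyond the spread between animals.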

Other observations

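One array, whose title and description name different animals, was put in no group. Over 500 variable probes it correlated at 0.844 with the hippocampus of AU_iTBS 4 and at no more than 0.275 with any other animal, and its median ribosomal member was at 9.36. The repeat array labelled AI_iTBS 2 cortex, left out above, correlated at 0.0812 with its own animal and at 0.834 with the cortex of AI_Sham 2, and its median member was at 9.85.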
